A study of Mus musculus with 1753 samples.

Results

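The genes examined here encode matrix proteins best known from cartilage and Sox transcription factors that act in cartilage formation. They were 10 of the 46517 genes in the table, taken by symbol through their Ensembl identifiers, and all 10 were found; the set was chosen with earlier results of these data known. Acan encodes aggrecan, the large proteoglycan of cartilage, and Hapln1 the link protein that fastens aggrecan to hyaluronan. Prg4 encodes lubricin, a lubricating glycoprotein of joint and tendon surfaces. Matn2, Matn3 and Matn4 encode matrilins, adaptor proteins that connect collagen fibrils with other matrix molecules. Sox9, Sox8, Sox5 and Sox6 encode DNA-binding factors of the SOX family.

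In cartilage, SOX9 switches on the genes of collagen II and aggrecan, and SOX5 and SOX6 strengthen this activity. SOX8 is a close relative of SOX9. Tendon and the connective tissue sheaths of muscle are fibrous and hold mainly collagen I, but zones of tendon that are pressed against bone also make cartilage-type matrix.

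Files give the genes by Ensembl identifier, and their places are those of GENCODE M21 on GRCm38, where all 10 are protein coding. Among the matrix genes, Acan (ENSMUSG00000030607) lies at chr7:79053483-79115099 on the plus strand, Hapln1 (ENSMUSG00000021613) at chr13:89539796-89611652 on the plus strand and Prg4 (ENSMUSG00000006014) at chr1:150449412-150466165 on the minus strand. Matn2 (ENSMUSG00000022324) lies at chr15:34306677-34436273 and Matn3 (ENSMUSG00000020583) at chr12:8947929-8972028, both on the plus strand, and Matn4 (ENSMUSG00000016995) at chr2:164389393-164405160 on the minus strand. Sox5 (ENSMUSG00000041540) spans chr6:143828425-144781977, Sox6 (ENSMUSG00000051910) chr7:115470872-116038796 and Sox8 (ENSMUSG00000024176) chr17:25565892-25570686, all on the minus strand, and Sox9 (ENSMUSG00000000567) chr11:112782224-112787760 on the plus strand. Counts cover exons, whose joined length runs from 3.014 kb for Matn3 to 14.832 kb for Sox6.

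Fibroblasts and mural cells (pericytes and smooth muscle cells of vessels) had been sorted one by one from hindlimb muscle (gastrocnemius with soleus, or each muscle apart) of adult male mice aged 10 to 20 weeks. The sort took cells with PDGFRα or PDGFRβ by antibody, or with a fluorescent reporter, and left out cells with the endothelial protein CD31. RNA of each cell was read with Smart-seq2, a full-length method without molecular identifiers, and the study clustered the cells from their counts. The work asked which fibroblast types occupy which layer of the connective tissue.

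The 1753 labelled cells came from 5 strain labels: C57BL6, an inbred strain without reporter (373 cells), the reporter lines Acta2GFP (157), Cspg4dsRED (181) and PdgfrbGFP (630), and the PdgfraGFP - PdgfrbGFP pool (412), called the pool below, for which the methods describe soleus muscles of a mouse of each line combined before dissociation. Of the pool cells, 231 were labelled gastrocnemius and 181 soleus, and the methods describe pooling for soleus only. A reporter shows only that the regulatory DNA of the named gene was active. All lines had been crossed onto the C57BL6 background, and elastase was added only when Acta2GFP muscle was dissociated. The labels name no animal, so the strain label served as replicate on the assumption that labels stand for different mice, and each n below counts strain labels with at least 3 cells of the group; whether the pool and PdgfrbGFP share a mouse was not tested. Clusters carried the study's numbers and class names: clusters 2 and 9 are perimysial (the sheath around fibre bundles, 328 cells), clusters 1, 3, 5, 6 and 8 endomysial (around single fibres, 1116 cells), cluster 4 paramysial (at the edge of the perimysium, 60 cells), cluster 7 mural (187 cells), and cluster 10 carries no class name (62 cells). The study defined cluster 10 by Cspg4, Pdgfra and Ngfr, the nerve growth factor receptor gene, and its staining placed these fibroblasts at the edge of nerve fibres. The tissue label reads skeletal muscle, while the extraction note of the labels mentions heart. Of 5 muscle cell markers, Acta1 and Ckm had a level of 10 or more in endomysial sums.

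The cells held 46097 to 1055869 counts each, and the median cell 258251 counts from 4461 genes. Cells of Cspg4dsRED, which lay on 1 plate, were the shallowest by strain label (median 121646 counts and 2283 genes), and they made up 37 of the 62 cells of cluster 10. Median counts by class were 276880 in endomysial, 257230 in perimysial, 156959 in mural, 187616 in cluster 10 and 595321 in paramysial cells. Fibroblast markers (Pdgfra, Col1a1, Dcn, Lum) summed to between 6114 and 13803 counts per 500000 in each fibroblast class and strain label, and to 105 to 598 in mural cells. The sum hides differences between markers. Averaged over perimysial cells, Pdgfra was 17.6 and Lum 128, against 391 and 964 in endomysial cells. Col1a1 was higher in perimysial cells (5394 against 2036). Dcn was similar (3927 against 3721), and its strain labels overlapped (2896 to 6472 against 2999 to 4510). Mural markers (Rgs5, Myh11, Notch3, Mcam) summed to 2967 to 5403 in mural cells and to at most 92.3 elsewhere.

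Levels below are scaled counts: each cell was scaled to 500000 counts and cells were averaged within a strain label, so that a mean ± SD is over strain labels. Differences were tested on raw counts summed over the cells of a class within a strain label, with edgeR's quasi-likelihood test, the strain label as a block and adjustment over all genes that passed the count filter; a gene was called at an adjusted p under 0.05. A sum cannot tell fewer cells with a gene from less RNA per cell. The clusters had been drawn from these same counts, so that every test between them describes the clusters and is not independent evidence, and comparisons that name the same class share its sums.

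**Figure D1:**
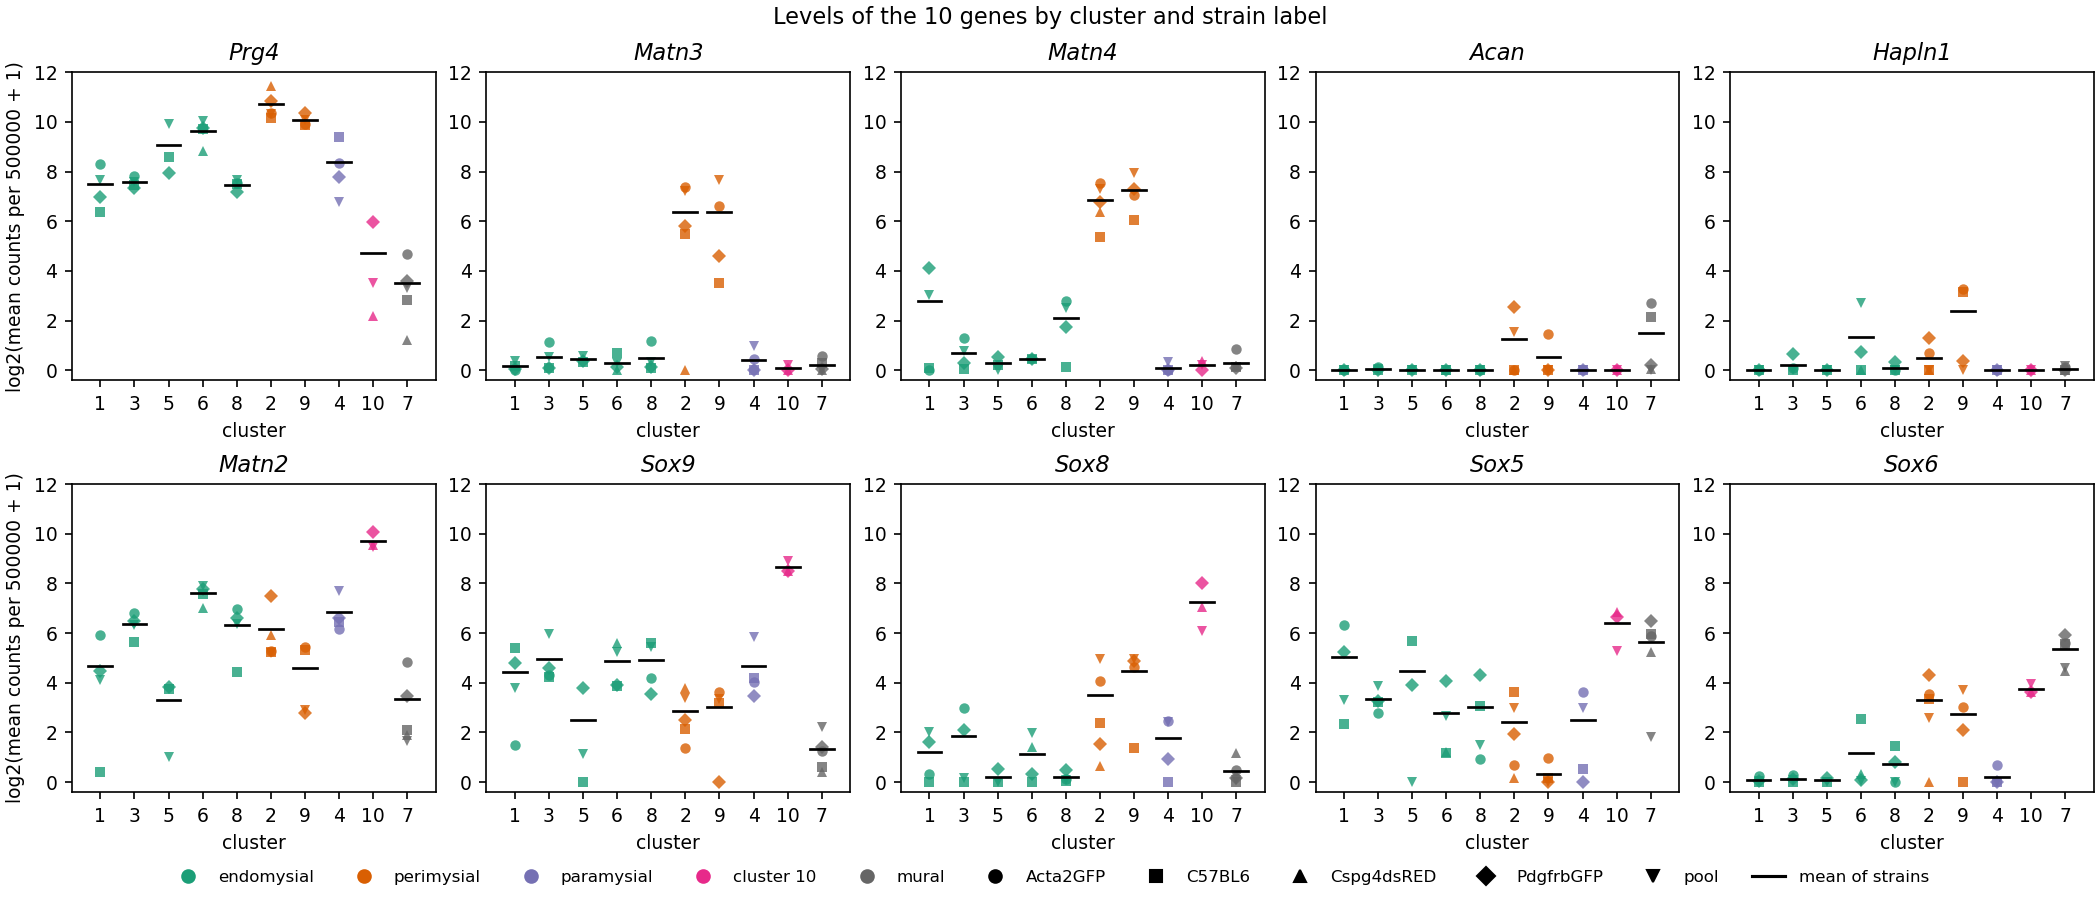
Levels of the 10 genes in the 10 clusters, as log2 of the mean scaled count (counts per 500000) plus 1 on the vertical axis. Each point is a strain label with at least 3 cells, colours give the class, symbols the strain label, and black lines the mean over strain labels. Matn3 and Matn4 stand high in clusters 2 and 9, Matn2, Sox9 and Sox8 in cluster 10, and Acan and Hapln1 stay near the floor throughout.

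In perimysial cells, lubricin and a pair of matrilins rose against endomysial cells, whereas edgeR called no Sox gene and aggrecan and link protein were barely seen. Prg4 was 1541 ± 607 scaled counts in perimysial and 326 ± 56.9 in endomysial sums (n = 5). Matn4 was 113 ± 55.0 against 1.61 ± 1.31, and Matn3 74.5 ± 64.8 against 0.343 ± 0.426. Of the 9 genes tested, 3 were called, all higher, against 2.32% of all genes called higher in that comparison, and the median log2 fold change of the 9 was 3.20 beside -0.19 for all 14121 genes.

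Prg4 in perimysial cells was 1081 scaled counts in Acta2GFP, 1122 in C57BL6, 2509 in Cspg4dsRED, 1765 in PdgfrbGFP and 1228 in the pool. In endomysial cells the same labels gave 275, 330, 405, 267 and 353 scaled counts. The lowest perimysial value lay above the highest endomysial one, and the log2 ratio within a strain label was 2.18 ± 0.57. The log2 fold change was 2.19 (edgeR's quasi-likelihood test, adjusted p = 0.00110), higher in 5 of 5 strain labels.

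Matn4 in perimysial cells was 149 in Acta2GFP, 42.0 in C57BL6, 77.9 in Cspg4dsRED, 117 in PdgfrbGFP and 180 scaled counts in the pool, and it was at most 3.16 in endomysial cells of any label. The groups did not overlap, and the log2 fold change was 7.07 (edgeR's quasi-likelihood test, adjusted p = 0.000961; log2 ratio within a strain label 7.09 ± 1.42, higher in 5 of 5). Matn3 was 120 in Acta2GFP, 40.7 in C57BL6, 50.4 in PdgfrbGFP and 161 scaled counts in the pool, but 0 in the 18 perimysial cells of Cspg4dsRED. It was 0 in endomysial cells of that label too, and at most 1.06 in the others, so that Matn3 was higher in 4 of 5 labels, with a log2 fold change of 8.47 (edgeR's quasi-likelihood test, adjusted p = 0.000961). Part of the exons of Matn4 (2.88%) is shared with Rbpjl on the other strand; Rbpjl had 2194 counts in perimysial and 130 in endomysial cells, beside 16269 and 1322 for Matn4, and since the use of strand in counting was not stated, reads of such overlapping genes cannot be told apart.

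Matn3 and Matn4 were high in the same clusters, so the 250 bases before their start sites are shown. The sequences are those of RefSeq for GRCm38.p6, written 5′ to 3′ along each gene, with letters of the searched motifs in capitals: ACAATG and ACAAAG, a pair of SOX core motifs, and CCAAT, the CCAAT box, each on both strands. CCAAT and ACAATG share the letters CAAT, but no position below counts under both. Of the 32851 windows of this length in the table, 10.7% held ACAATG, 16.5% ACAAAG and 33.8% CCAAT.
Matn3 (chr12:8947679-8947928, plus strand): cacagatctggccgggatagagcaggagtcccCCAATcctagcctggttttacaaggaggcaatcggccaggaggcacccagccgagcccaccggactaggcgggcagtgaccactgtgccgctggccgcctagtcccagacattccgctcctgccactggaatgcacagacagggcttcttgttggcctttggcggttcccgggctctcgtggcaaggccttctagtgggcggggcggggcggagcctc
Matn4 (chr2:164405161-164405410, minus strand): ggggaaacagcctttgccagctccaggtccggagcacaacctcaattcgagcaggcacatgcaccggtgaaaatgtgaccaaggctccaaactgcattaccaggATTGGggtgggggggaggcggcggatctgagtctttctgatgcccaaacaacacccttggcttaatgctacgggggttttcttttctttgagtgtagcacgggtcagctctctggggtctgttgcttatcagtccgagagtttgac
Each window held CCAAT 1 time (in Matn4 as its reverse complement) and neither SOX motif, and a second Matn4 window held none of the 3. Of the 10 genes, 7 had windows in the table, 13 in all, and Matn2, Prg4 and Sox9 had none.

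Among single cells, Prg4 at 100 or more scaled counts was near universal in the perimysial clusters, while the matrilins marked a part of the cells. Prg4 was found in 252 of 269 cells of cluster 2 (93.7%, exact Clopper-Pearson 95% interval 90.1 to 96.3) and in 59 of 59 cells of cluster 9 (93.9 to 100). Matn4 was found in 24.5% of cluster 2 (19.5 to 30.1) and 40.7% of cluster 9 (28.1 to 54.3), and Matn3 in 13.8% (9.87 to 18.5) and 15.3% (7.22 to 27.0). These pooled shares leaned on single labels: Matn4 in cluster 2 was found in 18 of 140 cells of C57BL6 (12.9%) and in 14 of 27 of the pool (51.9%), and came to 37.2% without C57BL6, while Matn3 in cluster 9 came to 8% without the pool. Such intervals cover counting error only, and reads without molecular identifiers are not independent molecules. In mural cells, which should lack these genes, Prg4 passed the limit in 1 of 187 cells and Matn3 and Matn4 in 0 of 187, which allows a share of up to 1.60% (taken as 3 counts of the total, here and wherever 0 cells are given; the exact interval ends at 1.95%). Thinned to 50000 counts per cell, cells with 10 or more counts came to similar shares, with 27.5% for Matn4 and 14.7% for Matn3 in perimysial cells, beside 27.4% and 14.02% without thinning.

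**Figure D2:**
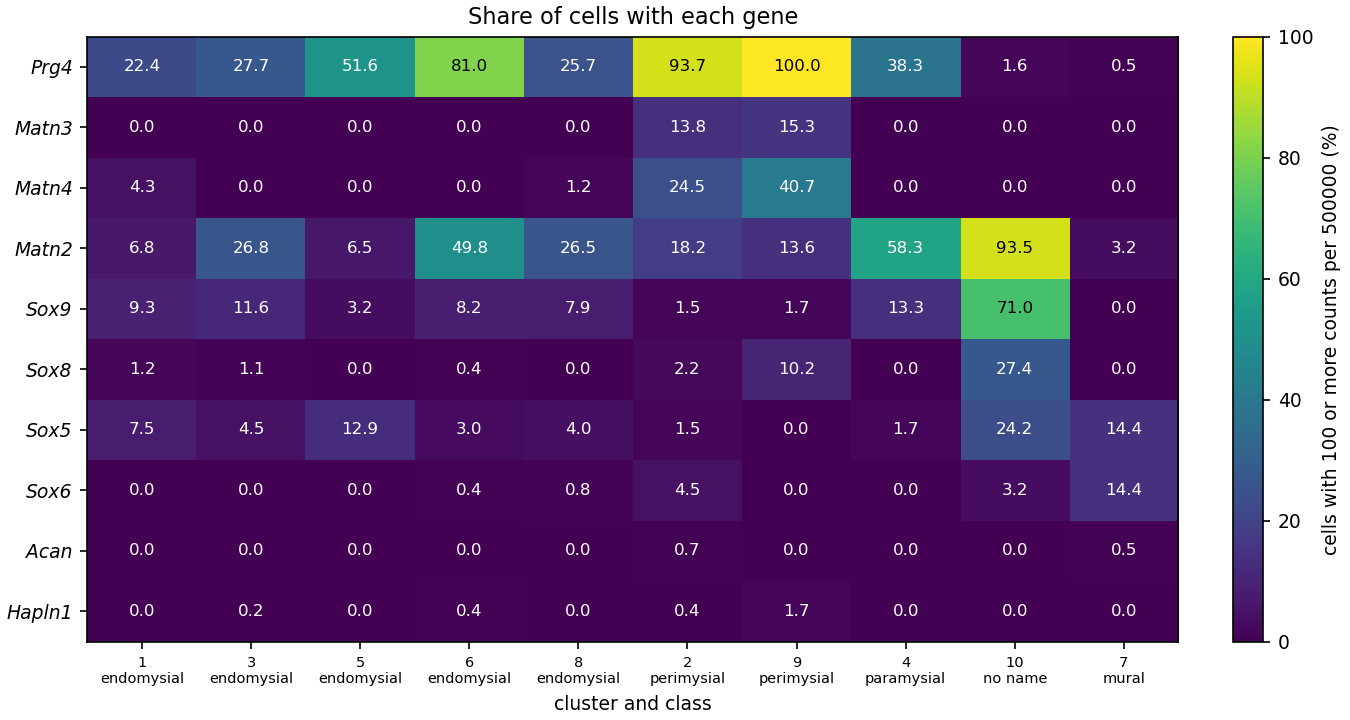
Share of cells (%) with 100 or more scaled counts (per 500000) of each gene, by cluster and class. Prg4 covers the perimysial clusters (93.7% and 100%) and 81.0% of cluster 6, Matn3 reaches 13.8% and 15.3% in clusters 2 and 9 and 0% elsewhere, and Matn2 and Sox9 mark 93.5% and 71.0% of cluster 10.

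The matrilin-positive cells overlapped in part. Matn4 was found in 24 of the 46 perimysial cells with Matn3 (52.2%) and in 23.4% of the other perimysial cells. Across the 328 cells, log2 levels of both genes correlated with r = 0.29 as a description, and Matn4 and Matn3 correlated with the number of genes detected with r = 0.32 and 0.19. All of Prg4, Matn3 and Matn4 were found in 23 perimysial cells, 87 had a pair of them, 204 had 1 and 14 had none. Of the 1116 endomysial cells, 2 held a pair and 0 held all 3, which allows a share of up to 0.269%.

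Matn2, the matrilin most widely made outside cartilage, did not pass the test. In perimysial cells it was 40.6 in Acta2GFP, 37.1 in C57BL6, 52.6 in Cspg4dsRED, 155 in PdgfrbGFP and 28.0 scaled counts in the pool, and in endomysial cells 108, 63.7, 132, 99.99 and 95.1. Only in PdgfrbGFP was the perimysial value the higher one, and the gene was not called (log2 fold change -0.77, edgeR's quasi-likelihood test, adjusted p = 0.377). Per kb of exon, so that genes can be compared, perimysial cells held 360 ± 142 scaled counts of Prg4, 24.7 ± 21.5 of Matn3, 21.9 ± 10.6 of Matn4 and 10.0 ± 8.36 of Matn2.

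The perimysial levels of the Sox genes were low, and the calls depended on the tool. Of the 4, edgeR called 0. DESeq2 called all 4 (adjusted p = 0.0222 for Sox5, 4.11e-05 for Sox6, 0.00581 for Sox8 and 2.49e-05 for Sox9), with the signs given below. Over all genes of this comparison, edgeR called 787 and DESeq2 2068. Sox9 was 7.96 in Acta2GFP, 3.81 in C57BL6, 11.2 in Cspg4dsRED, 3.98 in PdgfrbGFP and 9.26 scaled counts in the pool, and 17.99, 27.6, 43.2, 17.9 and 45.8 in endomysial cells. The groups did not overlap and Sox9 was lower in 5 of 5 labels, yet its log2 fold change of -1.76 missed the limit (edgeR's quasi-likelihood test, adjusted p = 0.0577); without Cspg4dsRED it was called at -1.76 (adjusted p = 0.0309), and with cells scaled before summing as well (adjusted p = 0.0322). Sox8 ranged from 0.518 to 29.9 scaled counts in perimysial and from 0.00913 to 4.57 in endomysial labels and was not called (log2 fold change 3.43, adjusted p = 0.292). Sox6 ranged from 0 to 16.5 against 0.0464 to 1.63 (log2 fold change 5.23, adjusted p = 0.152), and without Cspg4dsRED, where its perimysial level was 0, it was called at 6.12 (edgeR's quasi-likelihood test, adjusted p = 0.0237), as it was with the plate as unit (6.21, adjusted p = 0.0189). Sox5 ranged from 0.110 to 10.3 against 1.20 to 17.01 (log2 fold change -1.91, adjusted p = 0.260). Of the 328 perimysial cells, 300 had 100 or more scaled counts of none of the 4 Sox genes, 23 had 1 and 5 had a pair.

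Acan and Hapln1 were the least detected of the 10 genes. Acan had 267 counts in all perimysial cells, 194 of them in PdgfrbGFP, and 4 counts in all endomysial cells, and it did not pass the count filter. At 100 or more scaled counts it was found in 2 of 328 perimysial cells (0.61%, exact 95% interval 0.0739 to 2.19), and its mean was 1.35 ± 1.71 scaled counts in perimysial and 1.85 ± 2.56 in mural sums. Hapln1 had 310 counts in perimysial and 283 in endomysial cells, passed the limit in 2 cells of each class, and was not called (log2 fold change 3.20, edgeR's quasi-likelihood test, adjusted p = 0.788). Both genes overlapped between all neighbouring clusters in the order of their levels.

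**Figure D3:**
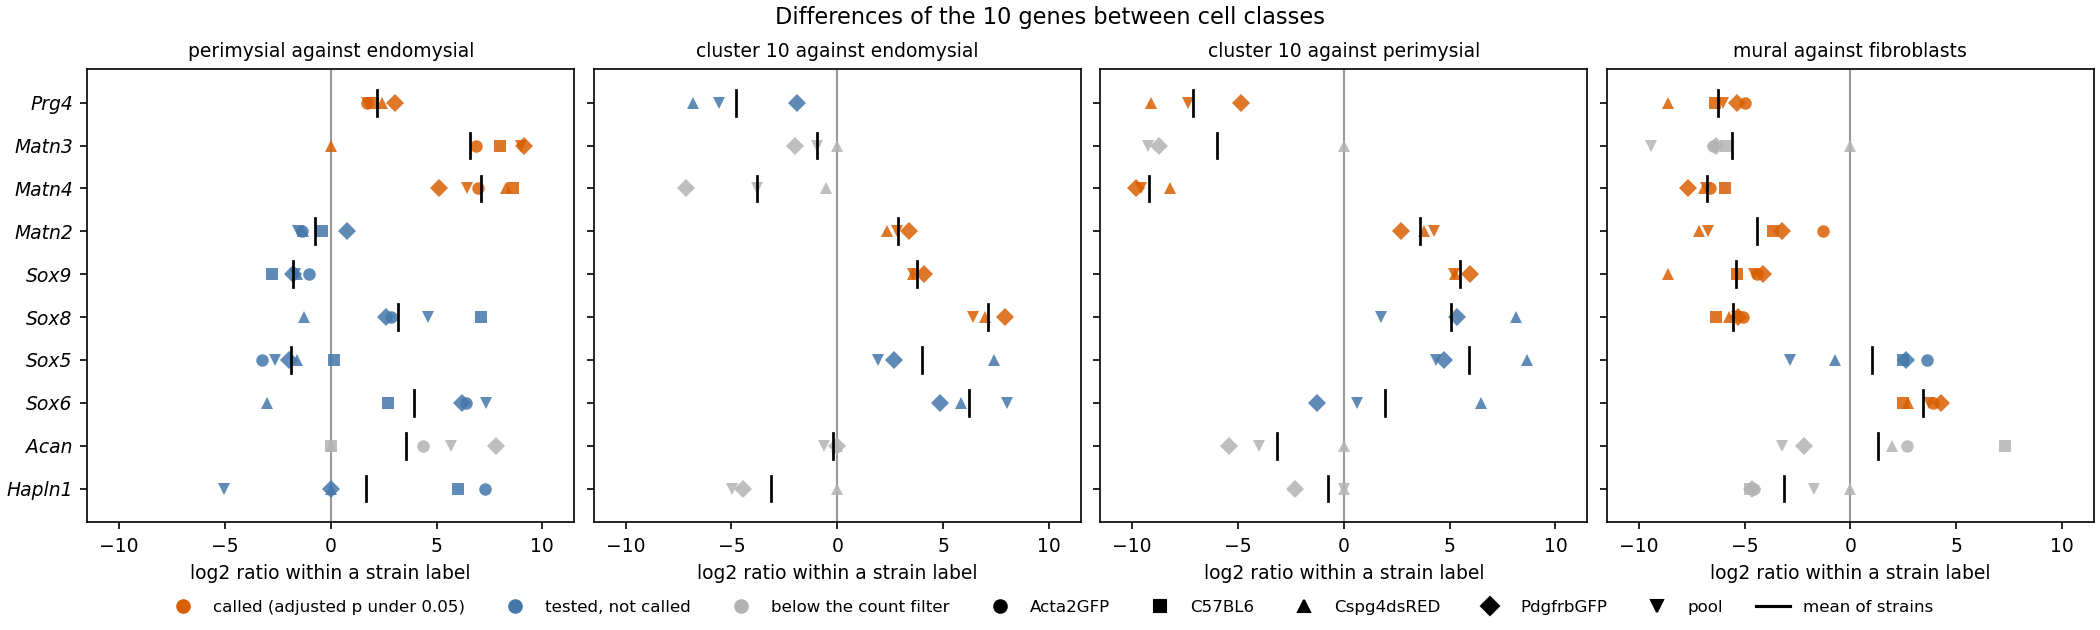
Log2 ratio of the summed counts between classes within each strain label (horizontal axis) for the 10 genes in 4 comparisons. Symbols are strain labels, black lines their mean, orange marks called genes, blue tested genes that were not called, and grey genes below the count filter. Prg4, Matn3 and Matn4 are called to the right in perimysial cells, Matn2, Sox9 and Sox8 in cluster 10 against endomysial cells, and Sox6 alone in mural cells.

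Other cartilage matrix genes rose in perimysial cells together with the matrilins. Of 20 genes listed, 11 were tested and 7 were called, all higher, with a median log2 fold change of 5.59. Col2a1, the collagen II gene that defines cartilage, was higher by 9.08 (adjusted p = 0.000187, edgeR's quasi-likelihood test), Col11a2, a partner chain of collagen II fibrils, by 9.04 and Cilp2, which encodes a matrix protein of articular cartilage, by 8.39. The level of Col2a1 was 55.2 ± 35.5 scaled counts in perimysial sums, and 12.8% of the cells had 100 or more.

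Tendon markers rose with them: Scx by 8.57, Mkx by 8.54 and Tnmd by 6.86 on the log2 scale, 3 of 3 called. Their summed level was 1393 to 1659 in perimysial and 3.74 to 34.7 scaled counts in endomysial labels. The study had already reported Scx, Tnmd and Col11a2 in perimysial cells. It had identified these clusters in part by Col11a1, a gene of the cartilage matrix list. Of 5 chondrocyte markers (Col2a1, Col10a1, Matn1, Cnmd, Acan), summed at 19.3 to 114 in perimysial and 0.132 to 11.1 in endomysial labels, Col10a1 and Matn1 were under 1 in perimysial cells. The part of tendon or cartilage cells in these results was not tested.

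Genes around aggrecan were called in both directions. Of 11 genes of the hyaluronan network, 7 were tested. The link protein gene Hapln3 rose by 7.94 and the hyaluronan receptor gene Cd44, named after its values were seen, was called higher too. Hapln3 stayed low, at 8.94 ± 10.7 scaled counts in perimysial sums, with 100 or more in 1.52% of the cells. The hyaluronan synthase gene Has1 fell by 5.35. The versican gene Vcan, which encodes another large proteoglycan that binds hyaluronan, fell by 3.90. Vcan was 6.38 ± 4.41 in perimysial and 83.9 ± 36.3 scaled counts in endomysial sums. Of 5 aggrecan-cleaving proteases, Adamts5 fell by 3.89 (17.3 ± 9.69 against 219 ± 85.2 scaled counts) and the other 4 were not called. Of 15 other Sox genes, 5 were tested and Sox7 alone was called (log2 fold change -4.47). Its levels were low, 0.165 ± 0.174 in perimysial and 3.57 ± 1.84 scaled counts in endomysial sums. Of 10 regulators of cartilage formation, 5 were tested and 0 were called by edgeR, with 3 at an unadjusted p under 0.05.

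Between the perimysial clusters 2 and 9, none of the genes was called by edgeR. Of 7 tested, 0 were called in cluster 9 against cluster 2, beside 0.92% of all genes called in either direction; 2 had an unadjusted p under 0.05 and DESeq2 called 2. Prg4 was 957, 934, 1329 and 1066 scaled counts in cluster 9 (Acta2GFP, C57BL6, PdgfrbGFP, pool) and lower than in cluster 2 within each of the 4 labels, with a log2 ratio of -0.53 ± 0.06 (adjusted p = 0.248 in edgeR's quasi-likelihood test). Matn3 had a log2 fold change of -1.41 (edgeR's quasi-likelihood test, adjusted p = 0.367) and was lower in 3 of 4 labels. Sox5 had 12 counts in cluster 9 and 1068 in cluster 2, below the count filter. Cilp2 and Chad were called lower among the 11 cartilage matrix genes tested, with log2 fold changes of -1.46 and -0.93.

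Cluster 10 held another set: Matn2, Sox9 and Sox8 were higher there than in endomysial cells, while edgeR called no gene of the cartilage matrix list. With n = 3, this lack of a call does not show that the listed genes were absent. Matn2 was 843 ± 209, Sox9 399 ± 65.4 and Sox8 152 ± 97.4 scaled counts (n = 3). Of 6 genes tested against endomysial cells, 3 were called, all higher, beside 0.265% of all genes called higher, and the median log2 fold change of the 6 was 3.81 beside -0.41 for all genes. Without PdgfrbGFP, 0 of the 10 genes and 0 of all genes were called in edgeR, and the median of all genes moved with the scaling (by 0.14 with RLE size factors and with DESeq2, by -0.11 with cells scaled before summing).

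Sox9 in cluster 10 was 358 in Cspg4dsRED, 365 in PdgfrbGFP and 474 scaled counts in the pool. All 3 lay above every endomysial label (at most 45.8), and the log2 fold change was 3.87 (edgeR's quasi-likelihood test, adjusted p = 0.0127, higher in 3 of 3; 3.66 and adjusted p = 0.137 without PdgfrbGFP). Sox8 was 130, 258 and 66.9 scaled counts in the same labels, again apart from the endomysial range, with a log2 fold change of 7.25 (edgeR's quasi-likelihood test, adjusted p = 0.0127, and 0.114 without PdgfrbGFP). Matn2 was 747, 1083 and 698 scaled counts against at most 132, with a log2 fold change of 2.96 (edgeR's quasi-likelihood test, adjusted p = 0.0288; 0.0501 without the block and 0.203 without PdgfrbGFP). Exons of Sox8 are shared to 10.6% with the antisense gene 2810468N07Rik, which had 1012 counts in the 62 cells of cluster 10 and 7458 in the 1116 endomysial cells, beside 3940 and 568 for Sox8.

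Sox5 was 113 in Cspg4dsRED, 99.0 in PdgfrbGFP and 37.6 scaled counts in the pool, above the endomysial labels in each case, but not called (log2 fold change 3.76, edgeR's quasi-likelihood test, adjusted p = 0.410). Sox6 was 11.4, 11.52 and 14.6 scaled counts and not called either (log2 fold change 6.66, adjusted p = 0.405). Prg4 was 3.55, 61.9 and 10.5 scaled counts, lower than in endomysial cells in 3 of 3 labels (log2 fold change -4.86, edgeR's quasi-likelihood test, adjusted p = 0.243), and it was called lower without Cspg4dsRED (-3.64, adjusted p = 0.0115). DESeq2 called all 6 of these genes in the same directions, in a comparison where it called 1005 of all genes and edgeR 55. Exons of Prg4 are shared to 4.77% with Tpr on the other strand. Tpr had 398 counts in cluster 10, 3315 in mural and 49321 in endomysial cells, beside 415, 779 and 199193 for Prg4. Exons of Sox5 are shared to 9.25% with the antisense gene Sox5os1, which had 76 counts in cluster 10 beside 2460 for Sox5. Matn3 and Matn4 had 2 and 4 counts in all of cluster 10, and Acan and Hapln1 had 0, so that each was found in 0 of 62 cells, which allows a share of up to 4.84% by the 3-count rule (exact 95% upper limit 5.78%).

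Within cluster 10, Matn2 reached 100 scaled counts in 58 of 62 cells (93.5%, exact 95% interval 84.3 to 98.2) and Sox9 in 44 (71.0%, 58.1 to 81.8). Sox8 did so in 17 cells (27.4%, 16.9 to 40.2), Sox5 in 15 (24.2%, 14.2 to 36.7) and Sox6 in 2. In mural cells the shares were 3.21% for Matn2 (0.763% without Acta2GFP and 5.31% without Cspg4dsRED) and 0 of 187 cells for Sox9 and for Sox8, which allows a share of up to 1.60%. Sox9 was found in 70.6% of the cells with Sox8 and in 71.1% of those without, and Sox8 in 26.7% of the cells with Sox5 and in 27.7% of those without. Of the 62 cells, 34 had 1 of the 4 Sox genes, 17 a pair, 2 had 3, 1 had all 4 and 8 had none. Per kb of exon, Matn2 stood at 135 ± 33.4, Sox9 at 96.5 ± 15.8, Sox8 at 48.7 ± 31.2, Sox5 at 5.78 ± 2.79 and Sox6 at 0.84 ± 0.12 scaled counts.

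Against perimysial cells the contrast ran both ways. Of 7 genes tested, Matn2 and Sox9 were called higher in cluster 10 (beside 0.896% of all genes) and Prg4 and Matn4 lower (beside 0.768%). Sox9 had a log2 fold change of 5.52 (edgeR's quasi-likelihood test, adjusted p = 0.00208) and Matn2 of 3.62 (adjusted p = 0.00425), each higher in 3 of 3 labels. Prg4 had -7.12 (edgeR's quasi-likelihood test, adjusted p = 0.0154) and Matn4 -9.99 (adjusted p = 0.00293; 4 counts in cluster 10 against 10012), each lower in 3 of 3. Sox5 was higher in 3 of 3 at 5.70 but missed the limit (edgeR's quasi-likelihood test, adjusted p = 0.0517); it was called with any 1 of the 3 labels left out, at adjusted p between 3.29e-05 and 0.0371. Sox8 was higher in 3 of 3 at 5.09 (adjusted p = 0.155; 6.04e-10 and 6.62 without the pool).

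The other lists held no called gene in cluster 10 against endomysial cells. Of 9 cartilage matrix genes tested, 0 were called by edgeR and 4 had an unadjusted p under 0.05, and of the hyaluronan network, the proteases, the other Sox genes, the regulators and the tendon markers 0 were called as well. Against perimysial cells, 6 of 10 cartilage matrix genes fell, among them Col11a2 (log2 fold change -11.15), Cilp2 (-10.16) and Comp (-8.65), as did 3 of 3 tendon markers. Col9a2, a collagen IX chain of cartilage, stood at 62.5 ± 23.3 and Col2a1 at 18.4 ± 13.8 scaled counts in cluster 10. In endomysial labels they reached at most 0.860 and 0.194. These 2 genes were picked after their values were seen, and neither was called against endomysial cells. Other genes of the list were lower in cluster 10, such as Comp (8.16 ± 0.93 against 290 ± 399) and Cilp (29.6 ± 43.1 against 622 ± 225).

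Markers of other cells in cluster 10 were as follows. Of the 5 chondrocyte markers, Col2a1 averaged 21.2 and Cnmd 21.4 scaled counts over cells, and the other 3 were under 1. Their sum was 3.63 to 56.4 over the labels. Of 3 perineurial markers, Cldn1 averaged 100 and Slc2a1 16.6 scaled counts over cells while Itgb4 was at 0.0269. Their sum was 73.4 to 227 (median label 83.9). It was 7.11 to 370 in endomysial (median label 17.8) and 1.11 to 16.6 in perimysial labels (median label 7.20). Endothelial markers summed to 4.78 to 163 (median label 9.43) and mural markers to 12.4 to 92.3 scaled counts (median label 25.9). The highest sums were those of PdgfrbGFP (8 cells), where Pecam1 reached 76.3, Kdr 61.5 and Mcam 88.8. Pecam1 and Kdr each had 100 or more scaled counts in 1.61% of the cells of cluster 10. Without this label, 0 genes were called against endomysial cells in edgeR. Immune markers summed to at most 4.86 scaled counts in cluster 10 and to at most 16.98 in the other fibroblast classes, and to 428 in 1 mural label. The study had removed cells with clear endothelial or immune signatures, so low sums of these markers were partly set beforehand. Their part in the results on cluster 10 was not tested.

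In paramysial cells the perimysial set was low. Against perimysial cells, 3 of 8 genes tested were called, all lower, beside 0.49% of all genes called lower: Matn4 at -10.89 (9 counts against 15889), Matn3 at -9.26 (16 against 11480) and Prg4 at -2.24 on the log2 scale (edgeR's quasi-likelihood test, adjusted p = 0.00142, 0.00327 and 0.0398), each lower in 4 of 4 labels. The median log2 fold change of the 8 was -2.56 beside -0.70 for all genes. Prg4 was 321 in Acta2GFP, 673 in C57BL6, 219 in PdgfrbGFP and 107 scaled counts in the pool. In the same order, these paramysial sums held 6, 3, 4 and 46 of the 60 cells. Matn4 and Matn3 were found in only 27.4% and 14.02% of perimysial cells, so a sum of 3 to 6 cells can miss them. Low values of Matn4 and Matn3 in the sums of Acta2GFP, C57BL6 and PdgfrbGFP therefore say little by themselves. Without the pool Matn4 alone was called, and without PdgfrbGFP Prg4 was not (adjusted p = 0.165). Of the other lists, 4 of 10 cartilage matrix genes fell, Col2a1 (log2 fold change -9.19), Col11a2 (-8.66) and Chad (-6.86) among them, Vcan rose by 4.60 and Tnmd fell by 3.99. Against endomysial cells 0 of 6 genes were called in edgeR, beside 0.0963% of all genes in either direction. Of the 6, 0 had an unadjusted p under 0.05 and DESeq2 called 0. The median log2 fold change of the 6 was -0.19 beside -0.86 for all genes. Matn2 was 71.6 to 204.7 scaled counts in paramysial and 63.7 to 132 in endomysial labels, and Sox9 9.97 to 56.9 against 17.9 to 45.8, so that both ranges overlapped; the pool gave the highest paramysial value of each. Sox6 had 3 counts in all paramysial cells that entered the sums, against 1904 in perimysial cells, yet was not called (log2 fold change -7.69, edgeR's quasi-likelihood test, adjusted p = 0.325).

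Of the genes tested in mural cells, Sox6 was called higher than in fibroblasts, Sox5 was present without a call, and the other 5 were called lower. Per kb of exon, mural cells held 3.41 ± 2.21 scaled counts of Sox5 and 2.67 ± 1.14 of Sox6. Sox6 was 48.0 in Acta2GFP, 46.2 in C57BL6, 21.2 in Cspg4dsRED, 59.8 in PdgfrbGFP and 23.1 scaled counts in the pool, above every cluster of fibroblasts in its mean. The lowest mural label lay above the highest label of all fibroblasts together (4.48), and Sox6 was higher in 5 of 5 labels with a log2 fold change of 3.60 (edgeR's quasi-likelihood test, adjusted p = 0.00541). It was the 1 gene of 7 tested that was called higher, beside 6.15% of all genes. Sox5 was 57.7, 61.3, 36.2, 87.7 and 2.48 scaled counts in the same order, which overlapped the fibroblasts (8.04 to 39.6), and it was not called (log2 fold change 1.44, adjusted p = 0.467).

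The other 5 were called lower in mural cells, beside 9.27% of all genes called lower. The log2 fold changes were -6.02 for Prg4 (edgeR's quasi-likelihood test, adjusted p = 0.000423), -6.83 for Matn4, -5.45 for Sox8, -5.07 for Sox9 and -4.17 for Matn2, each lower in 5 of 5 labels, and Matn2 lost the call without the pool (adjusted p = 0.0605). Among single mural cells, 27 of 187 had 100 or more scaled counts of Sox6 (14.4%, exact 95% interval 9.74 to 20.3), as many had Sox5, and 5 had both. In the lists, 6 of 9 cartilage matrix genes fell, as did 3 of 5 regulators, 5 of 7 genes of the hyaluronan network and 3 of 3 tendon markers, with log2 fold changes of -7.87 for Col11a1 and -7.85 for Col2a1.

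For the Sox genes, whose levels marked cluster 10 and mural cells, a start-site window of Sox8 and 1 of the 6 windows of Sox6 are shown in the same form, the latter because it held the most SOX motifs of the 13 windows.
Sox8 (chr17:25570687-25570936, minus strand): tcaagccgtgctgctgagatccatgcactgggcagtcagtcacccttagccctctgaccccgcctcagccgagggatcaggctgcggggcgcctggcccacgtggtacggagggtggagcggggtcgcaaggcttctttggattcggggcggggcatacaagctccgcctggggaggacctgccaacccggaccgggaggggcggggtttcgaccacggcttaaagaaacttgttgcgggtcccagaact
Sox6 (chr7:115995087-115995336, minus strand): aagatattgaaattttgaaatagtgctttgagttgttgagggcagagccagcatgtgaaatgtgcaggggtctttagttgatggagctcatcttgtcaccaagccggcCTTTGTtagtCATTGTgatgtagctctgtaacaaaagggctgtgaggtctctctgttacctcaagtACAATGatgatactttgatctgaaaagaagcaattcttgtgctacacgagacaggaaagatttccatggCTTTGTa
The Sox8 window held none of the 3 motifs. The Sox6 window held ACAATG 2 times and ACAAAG 2 times, counting both strands, and 5 of its 6 windows held at least 1 SOX motif. Such matches are descriptions of the letters in these windows and not binding sites.

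Within the endomysial class, Prg4 and Matn2 differed among clusters (2 of 9 genes tested, beside 5.46% of all genes in either direction), with adjusted p of 0.000697 and 0.0384 in edgeR's quasi-likelihood test over the 5 clusters. Matn2 lost this call without Acta2GFP, without PdgfrbGFP or without the pool (adjusted p from 0.0679 to 0.299). Prg4 was 798 ± 254 in cluster 6 and 533 ± 384 in cluster 5, but 189 ± 26.4, 181 ± 102 and 177 ± 23.4 scaled counts in clusters 3, 1 and 8. In cluster 6 it was 839 in C57BL6, 448 in Cspg4dsRED, 852 in PdgfrbGFP and 1055 in the pool, which overlapped cluster 9 (934 to 1329). Matn2 was 193 ± 48.0 in cluster 6 and 8.90 ± 6.84 in cluster 5. Of the endomysial cells with Matn2, 51.1% held Prg4, and of those without it 33.1% did. These shares pool the 5 clusters, and cluster 6 had the largest share of both genes (Prg4 in 81.0% and Matn2 in 49.8% of its cells). Whether Prg4 and Matn2 went together within a cluster was not tested.

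The order of the levels over the 10 clusters showed few clear steps. The labels did not overlap between first and second cluster for Matn2 (cluster 10, then 6), Sox9 (cluster 10, then 3), Sox8 (cluster 10, then 9) and Sox6 (cluster 7, then 10). For Matn4 the step came between cluster 2 and cluster 1 (115 ± 58.1 and 5.92 ± 7.74 scaled counts), and clusters 9 and 2 overlapped. For Prg4 the clear step came between cluster 8 and cluster 10 (25.3 ± 31.9). Sox8 in cluster 9 was 21.04 ± 13.2 and in cluster 2 10.5 ± 12.4 scaled counts, next after cluster 10.

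**Figure D4:**
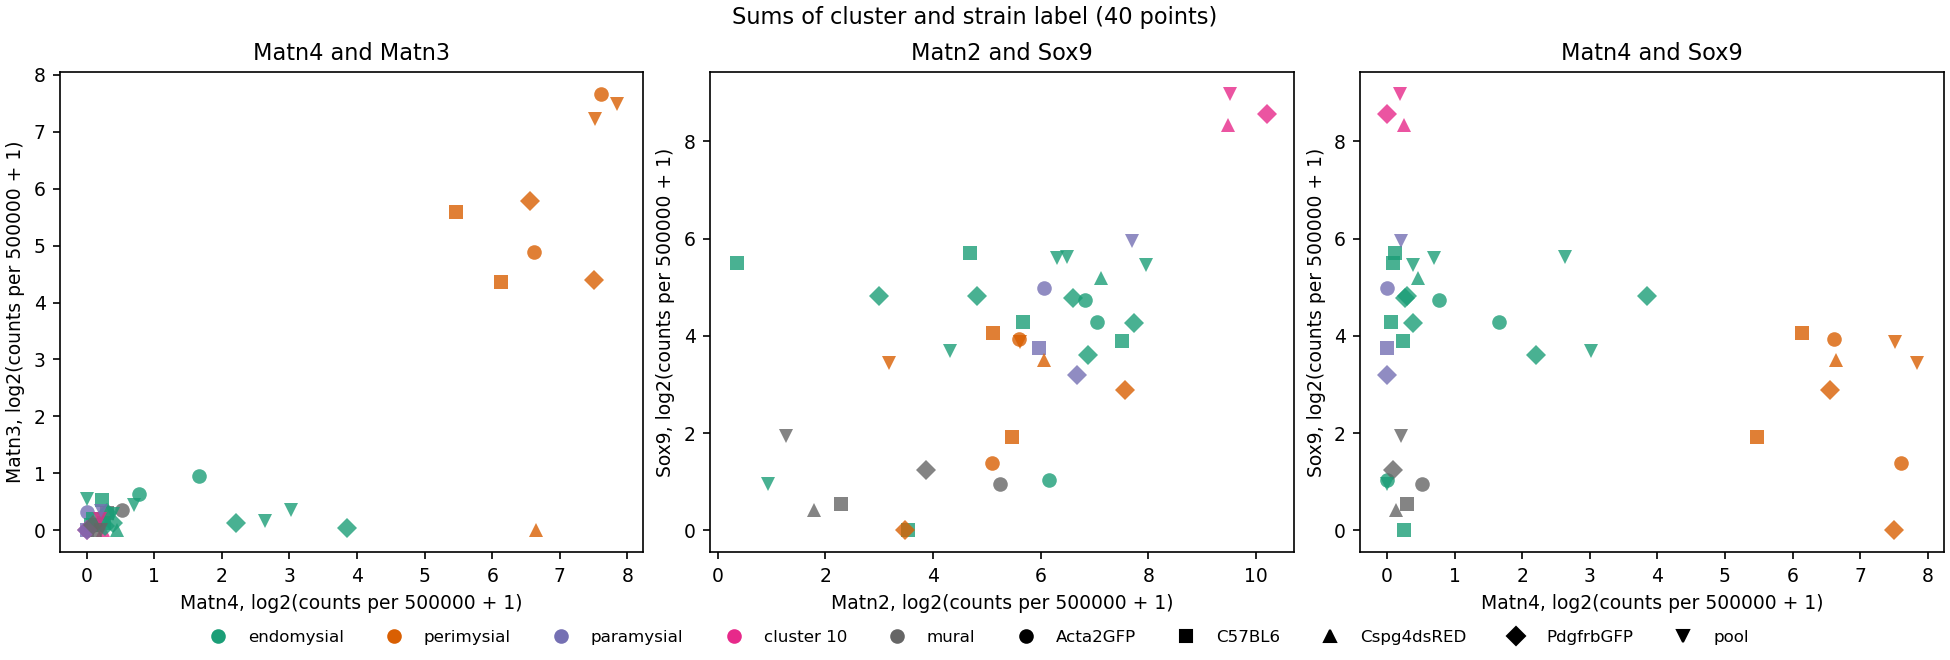
Log2 of the summed counts per 500000 plus 1 for 3 pairs of genes; each of the 40 points is a sum of 1 cluster and 1 strain label, coloured by class. Matn3 and Matn4 are high in the same perimysial sums except for Cspg4dsRED, where Matn3 is 0, Matn2 and Sox9 are highest in the 3 sums of cluster 10, and high Sox9 and high Matn4 fall in different sums.

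Across the 40 sums of cluster and strain label, which share plates, depth and the cell classes themselves, Pearson's r on log2(scaled counts + 1) is given as a description. Matn3 and Matn4 had r = 0.87, Matn2 and Sox9 0.64, and Sox5 and Prg4 -0.63. Each gene was compared only with genes at its own mean level or higher, from 80 genes for Prg4 to 9224 for Sox6. Among those 80, the genes most like Prg4 were Comp (0.83), Cilp (0.82) and Prelp (0.81), which encode matrix proteins of cartilage and tendon. The same 3 led by Spearman's rho. Matn3 was most like Col11a2 (0.89), Scx (0.88) and Matn4, and Matn4 most like Chad (0.89), Scube2 (0.89) and Kera (0.87). Sox6 was most like Lama5 (0.81), a laminin of vessel walls, Mylk (0.80) and Tpm1 (0.79), which serve smooth muscle contraction. Sox8 was most like Spp1 (0.82), Ngfr (0.74) and Reln (0.71), Sox9 like Col15a1 (0.75), Rgmb (0.74) and Atf4 (0.71), Matn2 like Atf4 (0.67), Vwa1 (0.63) and Herpud1 (0.63), and Sox5 like Atf3 (0.72), Hspa8 (0.71) and Pgm1 (0.67). By Spearman's rho, Matn3 and Matn4 kept 0 of their 3 genes, and Acan and Hapln1 had mean levels under 5 and were not compared.

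The muscles had been kept apart for PdgfrbGFP and the pool, which gave a side view without a test. In cluster 2, Matn2 was 258 scaled counts in gastrocnemius (18 cells) and 1.86 in soleus (7 cells) of PdgfrbGFP, and 48.1 (19 cells) and 4.45 (8 cells) in the pool. Matn4 went the other way, with 99.3 and 249 in PdgfrbGFP and 118 and 250 in the pool. Prg4 in cluster 2 was 2296 in gastrocnemius and 941 in soleus of PdgfrbGFP, and 1432 and 924 in the pool. Both labels thus had more Matn2 and Prg4 in gastrocnemius and more Matn4 in soleus.

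In endomysial cells Prg4 had the opposite order, 238 in gastrocnemius and 526 in soleus of PdgfrbGFP and 298 and 452 scaled counts in the pool. Cluster 8 showed it with 46.3 and 348 in PdgfrbGFP and 67.0 and 374 in the pool, and cluster 3 with 166 and 362, and 167 and 252. Cluster 6 did not: Prg4 was 755 and 1527 in PdgfrbGFP but 1181 and 934 in the pool. In the pool each muscle lay on a plate of its own, so that muscle and plate cannot be told apart there, while in PdgfrbGFP both muscles shared a plate.

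**Figure D5:**
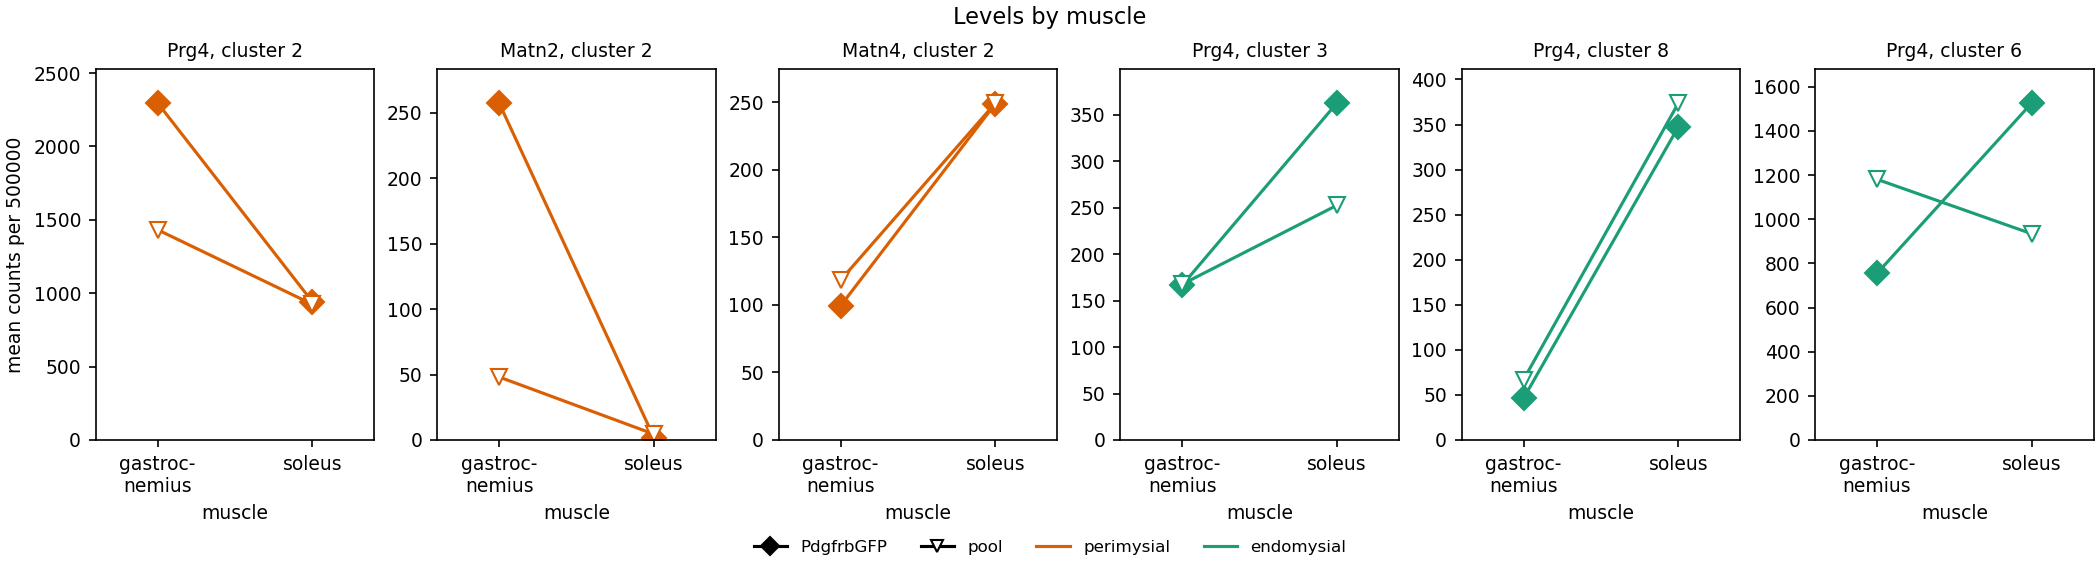
Mean scaled counts (per 500000, vertical axis from 0) of Prg4, Matn2 and Matn4 in cluster 2 and of Prg4 in clusters 3, 8 and 6, for gastrocnemius and soleus; filled diamonds are PdgfrbGFP and open triangles the pool. In cluster 2, Matn2 is 258 and 48.1 in gastrocnemius and 1.86 and 4.45 in soleus, Matn4 is higher in soleus, and in cluster 6 the labels differ in direction for Prg4.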

How the data were processed

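The authors' count table was used as deposited: whole read counts per Ensembl gene for 1754 cells, of which 1 cell without a label was not used, and 92 spike-in rows (1.31% of counts) left out of every total. Per the labels and the study's methods, the authors trimmed single 50-base reads with trim galore, aligned them with TopHat2 (Bowtie or Bowtie2) to GRCm38 and counted with featureCounts. They dropped cells with few counts and with few or very many genes. Cells that expressed neither Pdgfra nor Pdgfrb and cells with clear signatures of other types, such as endothelial or immune cells, were dropped too. Clustering used pagoda2. Annotation release and strand setting are not given in the sources used here. No doublet caller was run here.

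Clusters 2 and 9, 1, 3, 5, 6 and 8, 4, 7 and 10 formed the classes. Raw counts were summed per class and strain label (at least 3 cells) and tested with edgeR 4.0.16 in R 4.3.3 (quasi-likelihood test, TMM, filterByExpr, strain label as block, Benjamini-Hochberg adjustment over all genes tested); DESeq2 1.42.0, other scalings and left-out labels were alternatives. The strain label pairs the sums: deviations from class means correlated within each label (0.144 to 0.299 over 14121 genes). The study itself tested single cells with monocle. Gene positions are of GENCODE M21. The steps were tested on simulated data.

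The members and gene lists were chosen with earlier results of these data known. All 10 members were named; the 3 most alike genes were those of highest r among genes at the same mean or more, and from other lists up to 3 genes per comparison, by size of fold change among genes called and changed the same way in every label. One list of markers of another cell type is not reported here.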

Additional observations from a re-analysis of the deposited data

Results flagged for a closer look

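Of 32 groups of a gene and its strain labels that could be tested for a sample far from the others, 3 held one, and chance alone gives about 1 in 20. Matn2 in perimysial cells of PdgfrbGFP was 155 scaled counts (87 cells), against 28.0 to 52.6 in the other 4 labels. Within the same cells, Matn2 in cluster 2 of PdgfrbGFP was 181 against 35.2 to 59.2. Sox9 in paramysial cells of the pool was 56.9 scaled counts (46 cells), against 9.97 to 17.4 in the other 3 labels.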

How the results depend on the processing

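In perimysial against endomysial cells, DESeq2 called 7 of the 10 genes in place of 3, and leaving out a label gave 3 to 5 (5 without Cspg4dsRED). In cluster 9 against cluster 2, DESeq2 and the fit without a count filter called 2 each in place of 0. In cluster 10 against endomysial cells, DESeq2 called 6 and the fit without a filter 5 in place of 3, and leaving out a label gave 0 (without PdgfrbGFP) to 4. In cluster 10 against perimysial cells, 7 were called without a filter in place of 4. In paramysial against perimysial cells, leaving out a label gave 1 (without the pool) to 3, and among endomysial clusters 1 to 2. Calls over all genes moved as well. With all labels kept, they ran from 661 to 2068 in perimysial against endomysial and from 41 to 857 in cluster 9 against cluster 2. In cluster 10 they ran from 33 to 1005 against endomysial and from 138 to 1253 against perimysial cells. With a label left out, they ran from 395 to 1416, 35 to 50, 0 to 216 and 218 to 375 in the same order. The counts of the 10 genes are to be read beside these ranges. Of log2 fold changes, those that turned sign were not called: in cluster 9 against cluster 2, Matn4 was -0.36 and Sox9 -1.65 with plates as units, and with a label left out Matn4 ranged from -0.11 to 0.59, Sox8 from -0.39 to 1.36 and Sox9 from -0.91 to 1.67. Sox6 in cluster 10 against perimysial cells ranged from -0.20 to 3.49, and Sox5 in paramysial against perimysial cells from -2.70 to 0.70. Without the replicate block of strain labels, Matn2 in cluster 10 against endomysial cells had an adjusted p of 0.0501 and Sox5 in cluster 10 against perimysial cells one of 0.0252. With cells scaled before summing, Prg4 in paramysial against perimysial cells had 0.0541. Of the called values under all alternatives, 200 kept direction and call and 12 lost the call; of those not called, 274 stayed so, 29 were called and 10 turned sign. DESeq2 called 2068 of all genes in perimysial against endomysial cells, 1005 in cluster 10 against endomysial and 4336 in mural cells against fibroblasts, where edgeR called 787, 55 and 2140. Of the shares of cells with a gene, 281 moved by less than their interval under another detection limit and 169 by more, and the 3 most alike genes differed by Spearman's rho for 7 of 8 members. The cause of these changes was not tested. Sums of under 10 cells, such as 8 cells of PdgfrbGFP in cluster 10, and the shallow Cspg4dsRED cells limit what can be seen of low genes such as Acan, Hapln1 and Sox6.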
